A study of Mus musculus with 6 samples.

Results

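The 10 keratin genes Krt4, Krt6a, Krt7, Krt8, Krt17, Krt18, Krt19, Krt20, Krt23 and Krt80 were followed in mouse colorectal tumor organoids with and without chemotherapy. They were found by matching the Ensembl identifiers of the count table to GENCODE mouse symbols, and they are 10 of the 24190 genes with a row in that table. The organoids were MTO54, a mouse tumor organoid (MTO) line labelled as parental and as AKP, the genotype that every sample of both groups shares. Single cells were seeded in basement membrane extract in stem cell medium, and 2 days later 3 cultures received fresh medium alone (Control) and 3 received Folfiri, which combines 5FU at a labelled 50 μg/μl with SN38, the active form of irinotecan, at 100 nM. By the labels and the methods, RNA was taken after 2 days of treatment, whereas a legend in the study gives a longer time, and both groups come from 1 organoid line. The labels do not say whether replicates were seeded from separate passages, so p-values measure only the spread between these samples. Total counts per sample ranged from 22103591 to 30098210. Control replicate 1 stood apart, with a chi-square per degree of freedom over all genes of 23.7 and 22.4 against the other controls, which differed from each other by 3.84. Folfiri replicate 3 differed from its group by 12.3 and 11.9, where the other two treated cultures differed by 3.55. With Control replicate 1 or Folfiri replicate 3 left out, 3 keratins were called higher and 4 lower, as with all 6 cultures, but without Control replicate 1 Krt18 took the place of Krt23 among the lower.

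Keratins are the intermediate filament proteins of epithelia. An acidic type I keratin pairs with a basic type II keratin, and neither forms filaments alone. Simple epithelia such as the gut lining use the type II keratins Krt8 and Krt7 with the type I keratins Krt18, Krt19 and Krt20, and Krt20 marks the most differentiated intestinal cells. Krt4 is the type II keratin of squamous mucosa such as the esophagus, whereas Krt6a and Krt17 are stress keratins, induced in skin by wounding. Krt80 is a type II keratin of many epithelia, and Krt23 is a type I keratin of unsettled function. Mouse type II keratin genes lie together on chromosome 15 and type I genes on chromosome 11, with the exception of the type I gene Krt18, which is at the end of the chromosome 15 cluster.

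The simple keratins Krt7, Krt8, Krt18 and Krt19 stayed the most abundant of the 10 after Folfiri per kilobase of transcript, an order that for Krt7 depends on the length taken, while the squamous keratin Krt4 rose 7.68-fold. The stress keratin Krt6a and Krt80 rose 2.39-fold and 2.32-fold. Krt19 fell, whereas the changes of Krt7, Krt8, Krt18, Krt20 and Krt23 were small and depended on how libraries were scaled. Krt17 was at the limit of detection in every culture. With the quasi-likelihood test of edgeR at an adjusted p under 0.05, 3 of the 9 members tested were higher, 4 were lower and 2 did not pass. With total counts alone as the scaling, 1 was lower. Treatment moved much of the transcriptome, since 79.1% of the 14692 genes tested passed the same threshold, 40.3% as higher and 38.8% as lower, so the number of keratins that passed is near the background. The groups did not overlap for 7 of the 9 members, as for 81.4% of all genes tested. The median log2 fold change of the 9 members was -0.18, against 0.02 over all genes tested. RNA of whole cultures cannot tell fewer cells of a type from less RNA per cell.

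**Figure D1:**
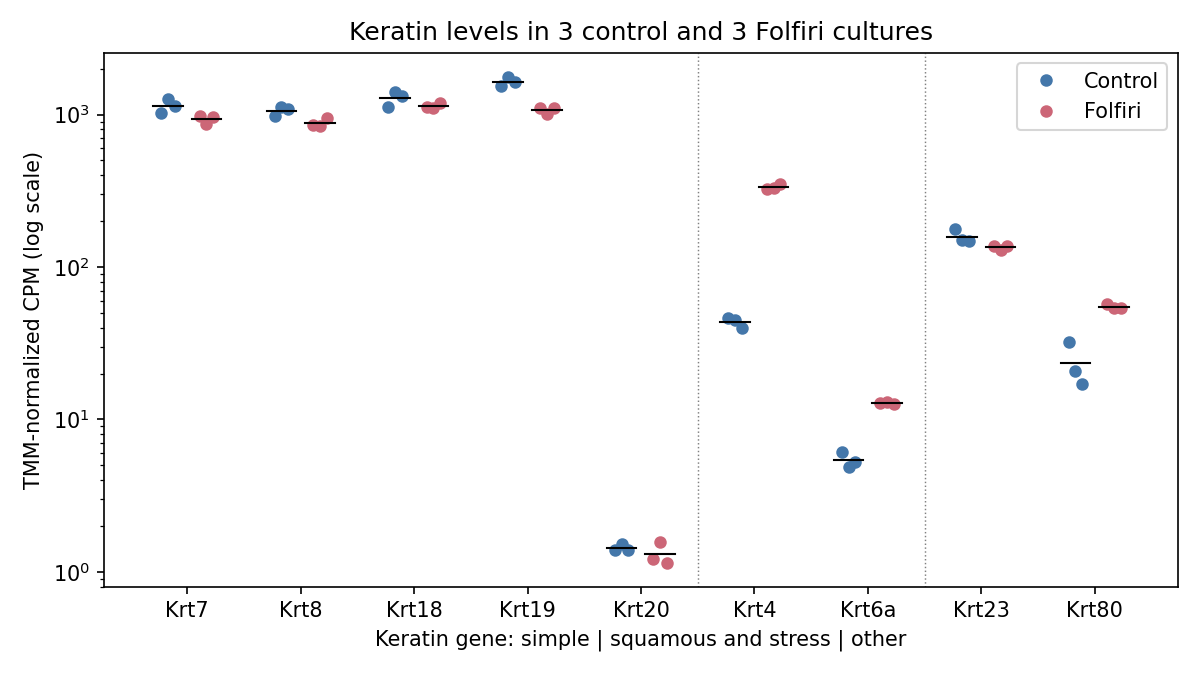
TMM-normalized CPM (read counts relative to library size, log axis) of the 9 tested keratins in each of the 3 Control and 3 Folfiri cultures, with black lines at the group means. Krt4 moves from between 40.0 and 46.2 CPM to between 326 and 349 CPM, while Krt7, Krt8, Krt18 and Krt19 stay between 838 and 1756 CPM.

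Promoter stretches are shown first for the pair Krt8 and Krt18, which adjoin each other on chromosome 15, for the differentiation keratin Krt20, and for the hair keratins Krt31 and Krt34, which rose most among the other type I keratins with more than a few counts. They run from 100 bases before to 10 bases after the RefSeq start site on GRCm38.p6, 5′ to 3′ on the gene's strand, with TATAAA on either strand, the TATA box core, in capitals.
Krt8 (chr15:102004333-102004442, minus strand): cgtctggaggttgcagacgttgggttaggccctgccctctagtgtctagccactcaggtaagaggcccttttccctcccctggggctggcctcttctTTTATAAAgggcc
Krt18 (chr15:102028116-102028225, plus strand): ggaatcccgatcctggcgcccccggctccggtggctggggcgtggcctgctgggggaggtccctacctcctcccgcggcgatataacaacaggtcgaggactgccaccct
Krt20 (chr11:99438144-99438253, minus strand): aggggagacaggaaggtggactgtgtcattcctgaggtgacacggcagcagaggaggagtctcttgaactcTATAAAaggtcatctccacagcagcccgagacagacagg
Krt31 (chr11:100050542-100050651, minus strand): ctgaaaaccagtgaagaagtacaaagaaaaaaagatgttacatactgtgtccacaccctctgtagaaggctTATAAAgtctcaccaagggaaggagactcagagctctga
Krt34 (chr11:100041545-100041654, minus strand): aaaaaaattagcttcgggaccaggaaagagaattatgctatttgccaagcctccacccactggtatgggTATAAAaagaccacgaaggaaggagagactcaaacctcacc
The windows of RefSeq that were searched span 250 bases before to 50 bases after the start site, and were listed for 5 of the members, namely Krt7, Krt8, Krt18, Krt20 and Krt23. TATAAA occurred in 13.6% of 32851 such windows of all genes and in 9 of the 20 tested keratins that had one. In Krt20 and Krt31 it lay from -29 to -24 and in Krt34 from -31 to -26. In Krt8 matches on both strands overlapped across the start site, from -3 to 5, and the GENCODE gene starts further upstream. Krt18, Krt7 and Krt23 had no such match. GGGCGG, the core of an Sp1 site, was in 35.7% of all windows and among the tested keratins in Krt7 alone, with 4 matches. TGANTCA, the AP-1 motif, was in 7.81% of windows and among the tested keratins in Krt13 alone. GGAATG, the TEAD motif, was in 14.7% of windows and in Krt14, Krt20 and Krt78, with 3 matches in Krt20. The windows of Krt7 and Krt14 lie inside the GENCODE gene and do not cover its start. These matches are letters within the windows and do not show binding.

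Among the squamous and stress keratins, Krt4 (ENSMUSG00000059668, chromosome 15 from 101918535 to 101924735, GRCm38) stood at 46.2, 44.8 and 40.0 CPM in Control replicates 1, 2 and 3 and at 326, 332 and 349 CPM in Folfiri replicates 1, 2 and 3. The lowest treated culture was far above the highest control, and the treated cultures lay close together. The control mean of 43.7 ± 3.30 CPM became 336 ± 11.9 CPM (SD, n = 3 each), which is 2.94 as a log2 fold change (SE 0.08, adjusted p = 1.61e-09, edgeR's quasi-likelihood test). Between 777 and 1284 counts in the controls and between 9736 and 11507 after Folfiri lie behind these values. Leaving out each culture in turn kept the log2 fold change between 2.87 and 2.98.

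Krt6a (ENSMUSG00000058354, chromosome 15 from 101689910 to 101694307), which is induced in wounded epidermis, had 6.09, 4.84 and 5.24 CPM in the controls and 12.9, 13.1 and 12.7 CPM after Folfiri. The groups did not overlap. The mean went from 5.39 ± 0.636 to 12.9 ± 0.179 CPM (SD, n = 3 each), which is 1.25 as a log2 fold change (SE 0.12, adjusted p = 3.38e-06, edgeR). Of the stretches of 50 bases in its transcript, 38% occur in no other gene and 43.6% also occur in Krt6b, so the counts of the 2 genes are uncertain individually. Krt6b, with log2 fold change 1.23 (adjusted p = 7.14e-05, edgeR), rose alongside it. Per kilobase of transcript, controls had Krt6a to Krt6b ratios of 2.4, 2.7 and 1.79, and Folfiri cultures had 2.26, 2.38 and 2.22, which overlapped. Genes on the opposite strand overlap 129 and 471 exonic bases of Krt6a, and whether counting used strand is not given in the sources used here.

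Krt17 (ENSMUSG00000035557, chromosome 11 from 100256217 to 100261029), the usual type I partner of Krt6a in stressed skin, had 0, 1 and 0 counts in the controls and 0, 3 and 1 counts after Folfiri. It failed the filter on low counts and was not tested. A count of 3, the limit that a count of 0 allows, corresponds to between 0.091 and 0.154 CPM in these libraries, for counting error only. Both groups were at or under this limit, so a change of Krt17 within it was not detectable at this depth. No treated culture exceeded 0.0968 CPM. Krt16, the other type I keratin of stressed skin, had a log2 fold change of 0.41 (adjusted p = 0.24, edgeR) from 1.37 ± 0.223 to 1.83 ± 0.780 CPM (SD, n = 3 each), with overlapping groups. Its log2 fold change was 0.68 without Folfiri replicate 2 (adjusted p = 0.0423, edgeR) and 0.05 without Folfiri replicate 1 (adjusted p = 0.87), so it rested on single cultures.

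Krt80 (ENSMUSG00000037185, chromosome 15 from 101347444 to 101370162) had 32.2, 20.8 and 17.1 CPM in the controls and 57.0, 53.4 and 53.4 CPM after Folfiri. Control replicate 1 was well above the other controls and still below each treated culture. The mean rose from 23.4 ± 7.89 to 54.6 ± 2.08 CPM (SD, n = 3 each), which is 1.21 as a log2 fold change (SE 0.18, adjusted p = 0.000101, edgeR), and it was 1.52 without Control replicate 1. A gene on the opposite strand shares 263 exonic bases with Krt80.

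Of the 5 simple keratins, Krt7, Krt8 and Krt19 were lower after Folfiri, 0 were higher, and Krt18 and Krt20 did not pass the threshold. Of all genes tested, 38.8% were lower. Krt19 (ENSMUSG00000020911, chromosome 11 from 100140810 to 100148665), a short type I keratin without a tail domain, had 1543, 1756 and 1635 CPM in the controls and 1106, 1013 and 1099 CPM after Folfiri. Every treated culture was below every control. The mean was 1645 ± 106 CPM and then 1073 ± 51.5 CPM (SD, n = 3 each), 1.53-fold lower, which is -0.62 as a log2 fold change (SE 0.09, adjusted p = 8.88e-05, edgeR). With libraries scaled by total counts alone the log2 fold change was -0.34 (adjusted p = 0.00108, edgeR), so Krt19 was lower under both scalings.

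Krt8 (ENSMUSG00000049382, chromosome 15 from 101996698 to 102004482), the main type II keratin of the intestine, had 979, 1116 and 1092 CPM in the controls and 853, 838 and 943 CPM after Folfiri. The groups did not overlap, but the highest treated culture lay just below the lowest control. The log2 fold change was -0.27 (SE 0.09, adjusted p = 0.0163, edgeR). It was 0.00 with total counts alone (adjusted p = 0.95, edgeR), and the call was lost without Control replicate 2, Folfiri replicate 1 or Folfiri replicate 2, with adjusted p values of 0.0584, 0.0739 and 0.0943. A pseudogene, Krt8-ps, holds 26.9% of the 50-base stretches of Krt8, and a gene on the opposite strand shares 101 exonic bases with it.

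Krt18 (ENSMUSG00000023043, chromosome 15 from 102028180 to 102032027), the type I partner of Krt8, had 1128, 1398 and 1327 CPM in the controls and 1121, 1098 and 1190 CPM after Folfiri. Folfiri replicate 3 lay above Control replicate 1, so the groups overlapped. The log2 fold change was -0.18 with a 95% confidence interval from -0.40 to 0.04 (adjusted p = 0.125, edgeR). It became 0.10 with total counts alone, and without Control replicate 1 it was -0.26 and passed the threshold (adjusted p = 0.00146, edgeR).

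Krt7 (ENSMUSG00000023039, chromosome 15 from 101411043 to 101430313), a type II keratin of ducts that is scarce in normal mouse colon, had 1020, 1257 and 1146 CPM in the controls and 976, 865 and 964 CPM after Folfiri. The treated cultures lay below the controls. The log2 fold change was -0.29 (SE 0.10, adjusted p = 0.0213, edgeR). With total counts alone it was -0.01 (adjusted p = 0.943), and the call was lost without Control replicate 2 (adjusted p = 0.0901) or Folfiri replicate 2 (adjusted p = 0.122). An opposite-strand gene shares 77 exonic bases with Krt7.

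Krt20 (ENSMUSG00000035775, chromosome 11 from 99428403 to 99438150), the keratin of differentiated colon cells, was low throughout, at 1.40, 1.52 and 1.39 CPM in the controls and 1.21, 1.58 and 1.15 CPM after Folfiri. Folfiri replicate 2 was the highest of the 6 cultures and Folfiri replicate 3 the lowest. The log2 fold change was -0.13 with a 95% confidence interval from -0.58 to 0.32 (adjusted p = 0.562, edgeR), and it was 0.14 with total counts alone. With 27 to 49 counts per culture, changes within that interval could not be told from none. Krt23 (ENSMUSG00000006777, chromosome 11 from 99477974 to 99493137), its tested neighbor, had 178, 150 and 147 CPM in the controls and 138, 129 and 138 CPM after Folfiri. The groups did not overlap, and Control replicate 1 was the highest. The log2 fold change of -0.23 (SE 0.08, adjusted p = 0.0294, edgeR) became 0.04 with total counts alone (adjusted p = 0.712) and -0.17 with upper quartile scaling (adjusted p = 0.0958). The call was also lost without Control replicate 1, Folfiri replicate 1 or Folfiri replicate 2 (adjusted p = 0.0522, 0.0612 and 0.126, edgeR).

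**Figure D2:**
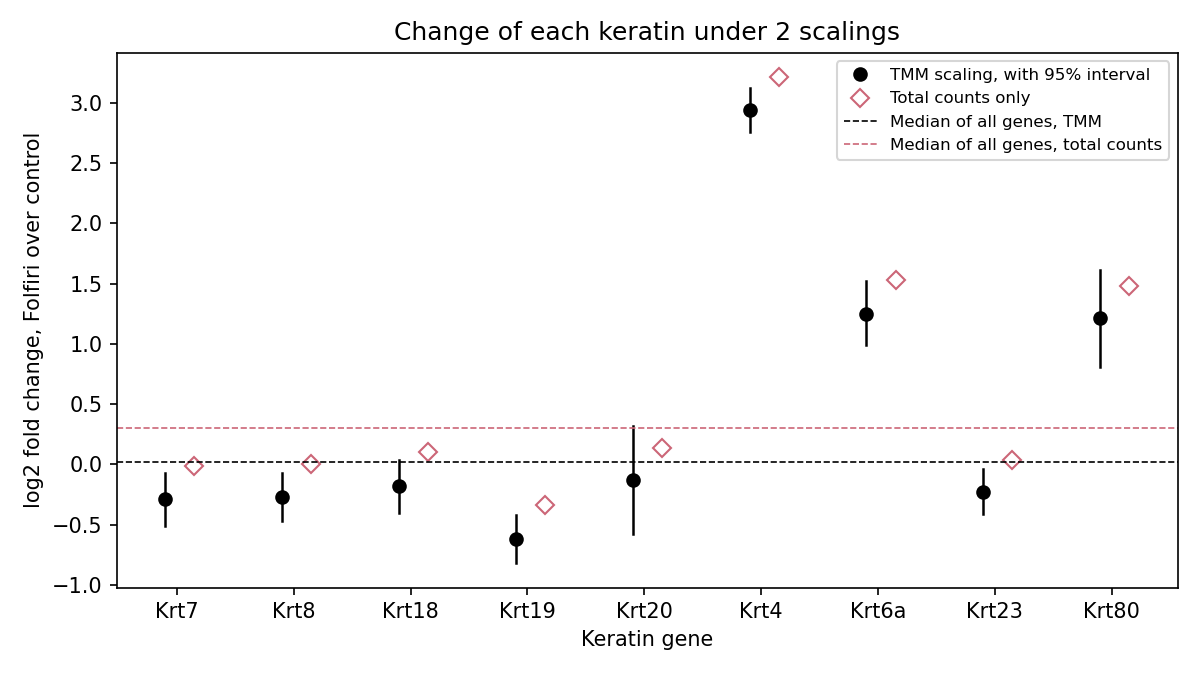
Log2 fold change of each tested keratin, Folfiri over Control, with TMM scaling (filled points, bars for the 95% confidence interval) and with total counts alone (open diamonds), beside the median of all genes under each (dashed lines). Krt4, Krt6a and Krt80 lie far above both medians and Krt19 below both, while Krt18, Krt20 and Krt23 change sign between the scalings and Krt8 goes to 0.00.

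The scaling mattered because the median log2 fold change of all genes tested was 0.02 with TMM and 0.30 with total counts alone. Relative to these medians, the values were nearly the same under both scalings. This follows from the scaling itself, which moves all genes by nearly the same amount, and adds no separate support. Krt8 was at -0.30 and -0.29, Krt18 at -0.20 and -0.19, and Krt19 at -0.64 and -0.63. The median of the 5 simple keratins was -0.27 with TMM and 0.00 with total counts alone, and that of Krt4 and Krt6a was 2.10 and 2.37.

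Ratios within a culture do not depend on the library scaling, so each member was set against Krt8 per kilobase of transcript. Controls had Krt4 to Krt8 ratios of 0.0433, 0.0369 and 0.0336 and Folfiri cultures 0.351, 0.363 and 0.340, a 9.31-fold rise. Each treated culture exceeded each control by a wide margin. The ratio of Krt6a to Krt8 rose 2.91-fold and that of Krt80 to Krt8 2.93-fold, again with no overlap of the groups. Krt19 fell relative to Krt8, from ratios of 1.96, 1.96 and 1.86 to 1.61, 1.5 and 1.45, a log2 difference of -0.34. Krt18 gained slightly on its partner, from 1.57, 1.71 and 1.66 to 1.79, 1.79 and 1.72, a log2 difference of 0.10. In each of these 5 cases the exact two-sided permutation test gave p = 0.1, the smallest that 3 cultures against 3 allow, or 0.16 after Benjamini-Hochberg adjustment over the 8 ratios. The ratios to Krt8 of Krt7 (p = 0.7), Krt20 (p = 0.8) and Krt23 (p = 0.8) overlapped between the groups in the same exact test.

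**Figure D3:**
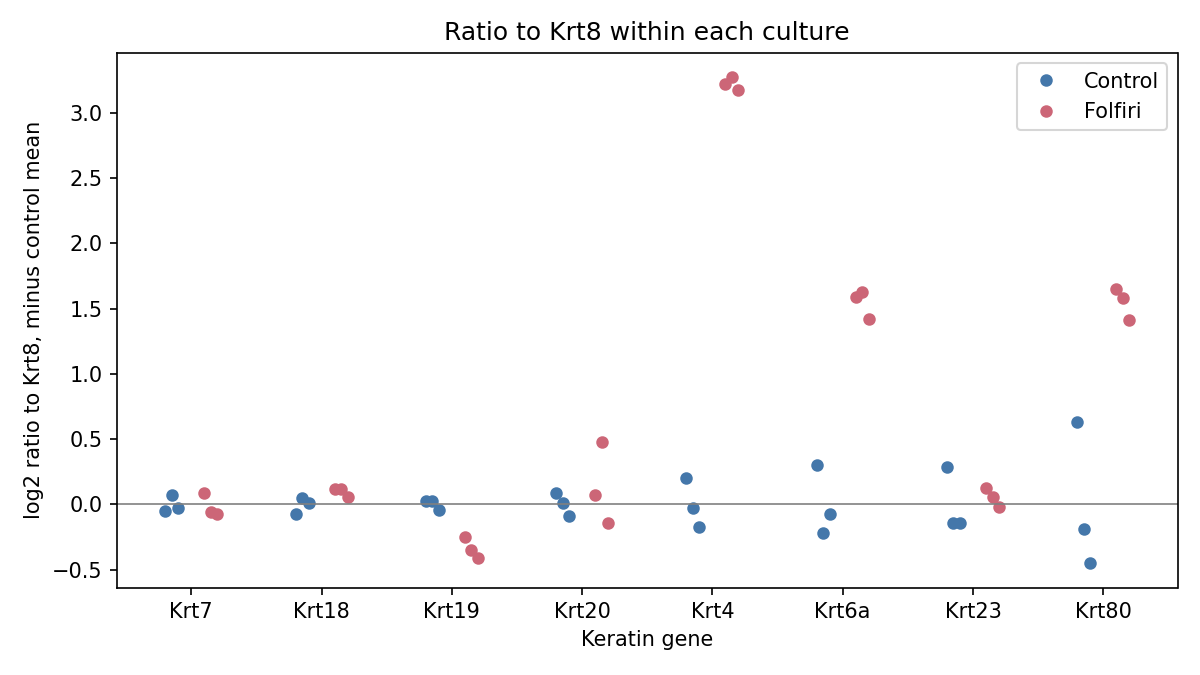
Log2 ratio of each keratin to Krt8 in the same culture, with the mean of the controls set to zero, for 3 Control and 3 Folfiri cultures. Krt4, Krt6a and Krt80 separate upward by log2 differences of 3.22, 1.54 and 1.55 and Krt19 downward by -0.34, while Krt7, Krt20 and Krt23 overlap.

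Levels of different genes were compared as CPM per kilobase of the transcript with the longest coding sequence. On that scale the controls held most of Krt19, at a mean of 1044, followed by Krt18 at 894, Krt8 at 543, Krt7 at 279 and Krt23 at 101. Krt4 at 20.5, Krt80 at 7.62, Krt6a at 2.37 and Krt20 at 0.746 came far behind. After Folfiri, Krt18 led at 791, ahead of Krt19 at 681, Krt8 at 449 and Krt7 at 228. Krt4, at 157, then stood above Krt23, at 86.5, while Krt80 was at 17.8, Krt6a at 5.66 and Krt20 at 0.682. Neighbors in either order did not overlap when taken as shares of the summed level in each culture.

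Krt19 made up 36.1 ± 0.622% of the summed keratin level in the controls and 28.2 ± 0.7% after Folfiri (SD, n = 3 each). Krt4 went from 0.712 ± 0.0905% to 6.52 ± 0.209%. Those were the main shifts in make-up, since Krt18 went from 30.9 ± 1.2% to 32.7 ± 0.463% and Krt8 was at 18.8 ± 0.331% and 18.6 ± 0.573%. The order at the top depends on which length is taken. With all annotated exons the controls held 34.0% Krt19 and 34.1% Krt18, and with coding length alone the treated cultures held 25.9% and 26.1%. Krt7 is the most sensitive to this choice, with 9.63% of the control level by transcript, 20.3% by coding length, which would place it above Krt8 at 17.6%, and 6.19% by all exons. After Folfiri, Krt7 took 9.45% by transcript and 19.9% by coding length, but 6.01 ± 0.24% by all exons, below Krt4 at 7.13 ± 0.212% (SD, n = 3 each).

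**Figure D4:**
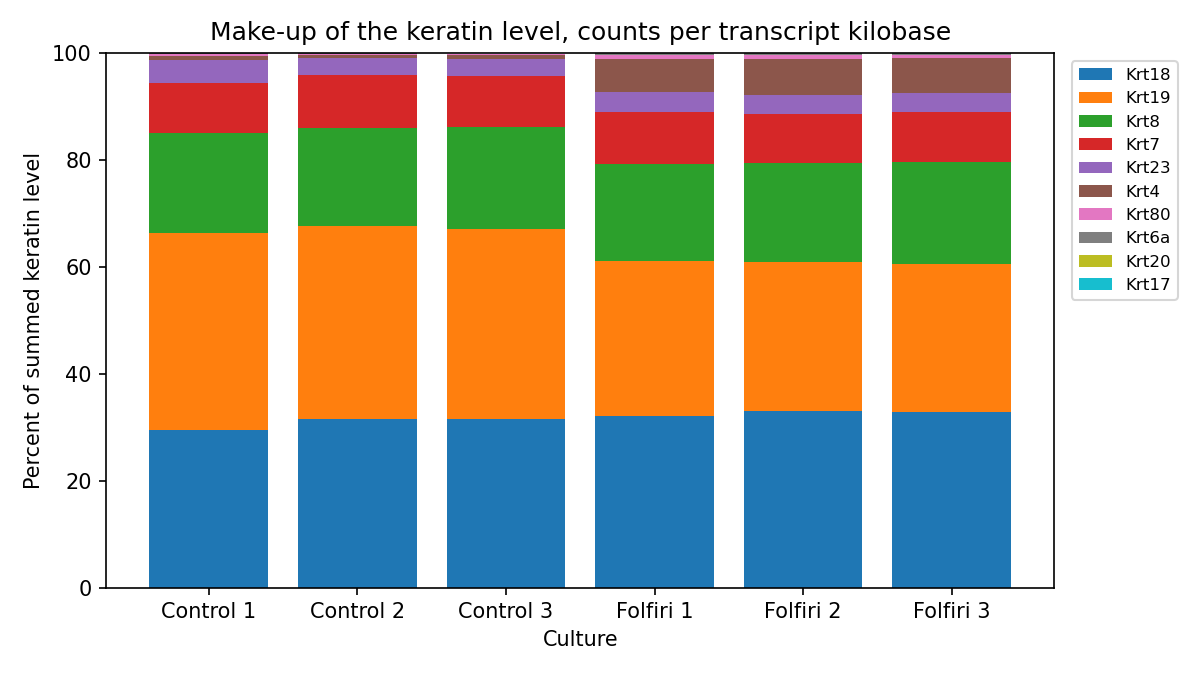
Percent of the summed keratin level, in counts per kilobase of transcript, taken by each of the 10 members in each culture. The Krt4 segment widens from 0.642 to 0.814 percent in the controls to between 6.32 and 6.73 percent after Folfiri, and the Krt19 segment narrows.

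Summed over the 10 members, control cultures had 4935, 5748 and 5411 CPM of keratin RNA and Folfiri cultures 4593, 4344 and 4751 CPM. The treated cultures lay below the controls, with means of 4562 ± 205 and 5364 ± 409 CPM (SD, n = 3 each), a log2 change of -0.23 that is smaller than the shift of all genes between the scalings. As unscaled shares, the members took between 0.476 and 0.520% of all counts in the 6 cultures. The summed type II members relative to the summed type I members, per kilobase, went from 0.417, 0.415 and 0.420 to 0.542, 0.549 and 0.560, a log2 difference of 0.40 with a pooled SD of 0.02. This ratio is a description without a test, and its size depends on the lengths and on which keratins are summed, with 0.28 over all annotated keratins. Within the Krt8 and Krt18 pair the ratio of type II to type I moved the other way, from 0.637, 0.586 and 0.604 to 0.559, 0.560 and 0.582, a log2 difference of -0.10.

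Beyond the members, 44 more keratin genes are annotated, of which 24 were tested, 13 were higher, 5 were lower and 6 did not pass the threshold (edgeR), or 16 higher and 5 lower with total counts alone. Their median log2 fold change was 0.96. Krt79, which lies 4596 bases from Krt4 and marks the upper hair follicle, had 153, 165 and 171 CPM in the controls and 35.2, 33.8 and 35.0 CPM after Folfiri. Every treated culture was far below every control, and the log2 fold change was -2.23 (SE 0.07, adjusted p = 3.73e-09, edgeR). The ratio of Krt4 to Krt79 per kilobase thus turned from 0.297, 0.267 and 0.229 to 9.12, 9.66 and 9.79. Krt78, a type II keratin that lies 5676 bases beyond Krt79, fell from 28.0, 34.0 and 29.8 CPM to 4.83, 3.23 and 4.19 CPM (log2 fold change -2.91, adjusted p = 3.92e-08, edgeR). Krt8 follows 42410 bases further on, and Krt18 23697 bases after that. Changes of opposite sign stood next to each other in the order of genes on chromosome 15.

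The epidermal keratins did not move as a block. Krt5, the type II keratin of basal squamous cells, rose from 0.679 ± 0.113 to 2.81 ± 0.239 CPM (log2 fold change 2.02, adjusted p = 5.08e-06, edgeR), whereas its partner Krt14 did not pass the threshold (log2 fold change 0.53, adjusted p = 0.104). The log2 value for Krt14 was 0.78 without Control replicate 2 (adjusted p = 0.0469, edgeR) and 0.22 without Control replicate 1 (adjusted p = 0.42). Krt1, the type II keratin of upper epidermal layers, fell with a log2 fold change of -2.72, and its partner Krt10 had 0.32 (adjusted p = 0.0579, and 0.0464 without Control replicate 3 or 0.0361 without Folfiri replicate 2). Krt13, the type I partner of Krt4 in squamous mucosa, fell from 2.62 ± 0.147 to 1.10 ± 0.114 CPM (SD, n = 3 each; log2 fold change -1.25, adjusted p = 6.92e-05, edgeR). Krt4 thus rose while its squamous partner fell. Krt90, Krt27, Krt76, Krt39 and Krt87 had log2 fold changes of 1.62, 1.83, 0.04, -0.26 and 0.28, and the first 2 passed the threshold. Leaving out a culture changed 2 of these calls, since Krt39 passed without Control replicate 2 (adjusted p = 0.036) and Krt87 without Control replicate 1 (adjusted p = 0.0272). With total counts alone, Krt10, Krt14 and Krt87 passed the threshold, at log2 fold changes of 0.59, 0.81 and 0.55 (adjusted p = 0.00267, 0.0184 and 0.0205, edgeR).

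Hair keratins, a group taken by gene number after their values had been seen, build the hard fiber of hair. Over all genes tested, 40.3% were higher and 38.8% lower. Of the 9 type I hair keratins, 7 were tested, 6 were higher and 0 lower, with a median log2 fold change of 2.86. The seventh, Krt39, had a log2 fold change of -0.26 and its treated cultures lay below the controls, but it did not pass the threshold (adjusted p = 0.0556, edgeR) and was at 0.02 with total counts alone (adjusted p = 0.91). Krt34 had 0.900, 3.80 and 0.720 CPM in the controls and 19.2, 11 and 18.2 CPM after Folfiri, with no overlap (log2 fold change 3.13, adjusted p = 5.99e-05, edgeR). Its value was 4.28 without Control replicate 2, the control with the most of it. Krt31 rose by a log2 fold change of 3.37, Krt33a by 2.86 (3.45 without Control replicate 2), Krt33b by 0.99 and Krt36 by 0.93. Krt35 went from 3 counts over the controls to 52 over the treated cultures, a ratio of 13.4 with a counting interval from 4.32 to 66.8. Krt28, a keratin of the hair root sheath and not of the fiber, went from 1 count to 65, a ratio of 50.1 with a counting interval from 8.67 to 2.01e+03. Of the type II hair keratins, Krt81 and Krt86 rose by 1.84 and 1.31 and Krt83 fell, with a log2 fold change of -1.73. The summed hair keratins stayed small, at 33.4, 44.9 and 37.1 CPM in the controls and 68.4, 48.9 and 77.3 CPM after Folfiri. Hair keratins share sequence, and between 56.5% (Krt81) and 78.1% (Krt33a) of the 50-base stretches of Krt31, Krt33a, Krt33b, Krt34, Krt81, Krt83 and Krt86 are in no other gene, so their split among genes is uncertain. Their calls are thus not fully separate results.

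**Figure D5:**
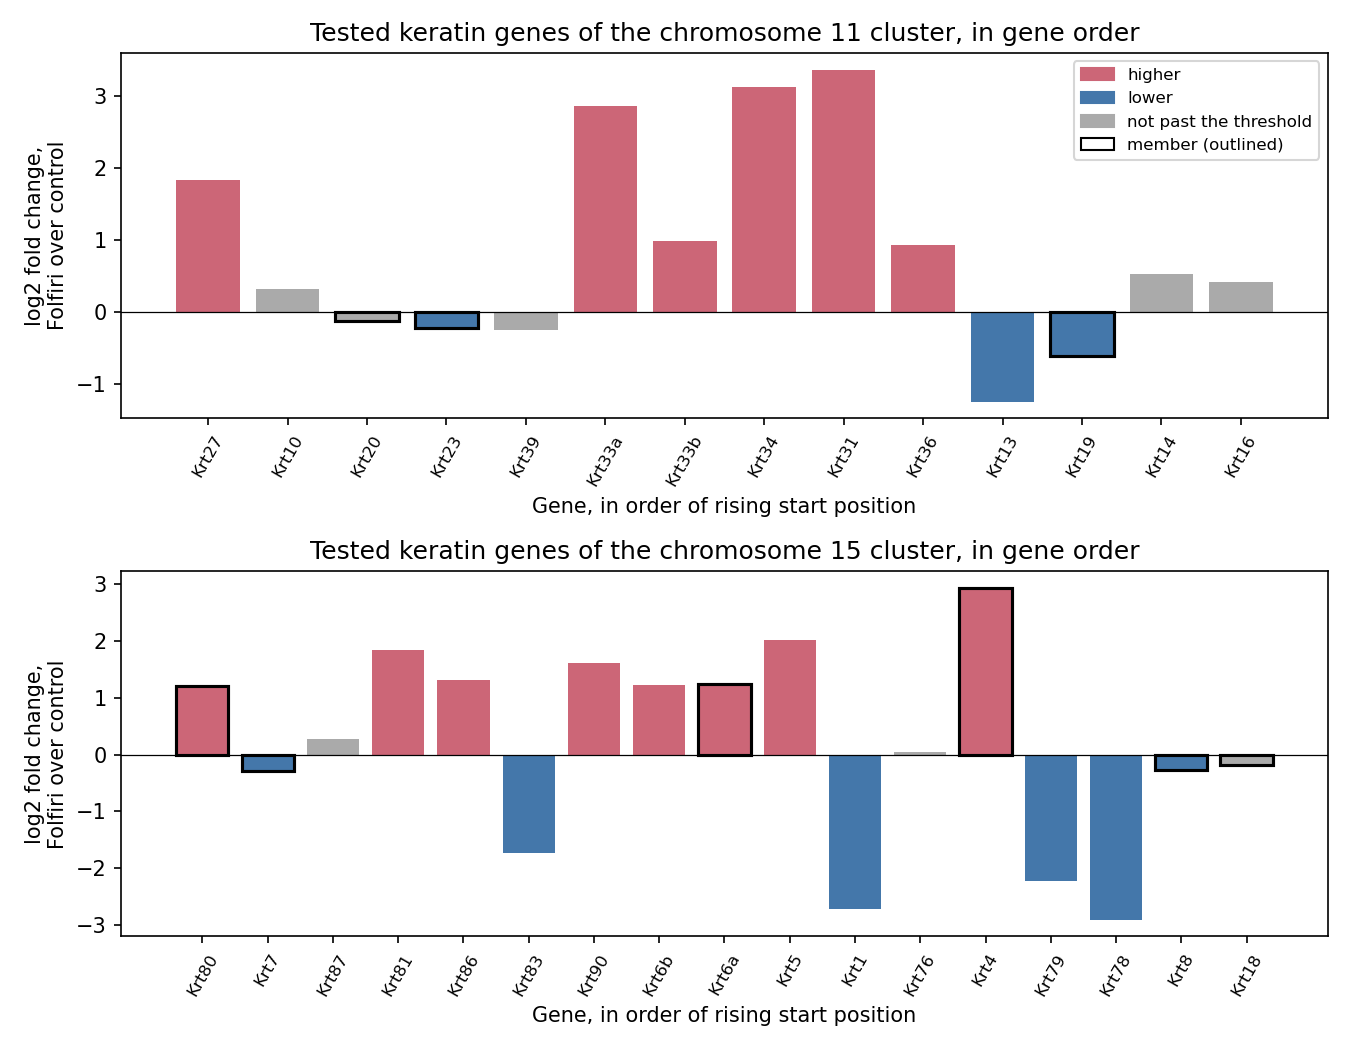
Log2 fold change, Folfiri over Control, of the tested keratin genes in their order along chromosomes 11 and 15, without Krt28 and Krt35, which have at most 3 counts over the controls. Outlined bars are the 9 members that were tested, gray bars did not pass the adjusted p of 0.05, and Krt4 stands at 2.94 beside Krt79 at -2.23 and Krt78 at -2.91.

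Of 27 keratin genes in the chromosome 15 cluster, 17 were tested, 8 were higher and 6 lower, or 9 and 4 with total counts alone. On chromosome 11, 16 of 27 were tested, 8 were higher and 3 lower, or 10 and 2 with total counts alone. The shares over all genes tested were 40.3% higher and 38.8% lower. The rises on chromosome 11 included the neighbors Krt33a, Krt33b, Krt34 and Krt31. The 3 lower genes there were Krt23, Krt13 and Krt19.

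Transcripts for proteins that hold keratin filaments at desmosomes and hemidesmosomes were examined next. Of 14 tested, 3 were higher and 7 lower (edgeR), but 7 were higher and 5 lower with total counts alone, so the balance of this list depends on the scaling. The edgeR shares over all genes tested were 40.3% higher and 38.8% lower. Pkp1, a plakophilin of stratified desmosomes, had 441, 494 and 462 CPM in the controls and 70.8, 61.0 and 59.9 CPM after Folfiri, which is -2.87 as a log2 fold change (adjusted p = 3.17e-09, edgeR). Pkp2, another desmosomal plakophilin, fell by 1.58 on the log2 scale, the hemidesmosome integrins Itga6 and Itgb4 by 0.95 and 0.80, and the keratin anchor Dsp, encoding desmoplakin, by 0.68. Eppk1, encoding the keratin linker epiplakin, rose by 1.98 and the desmosomal cadherin Dsg2 by 0.52, while the call of the third, Plec, was lost without Folfiri replicate 1 (adjusted p = 0.0572, edgeR). With total counts alone Jup and Dsc2 lost their calls as lower, and Evpl, Ppl, Pkp3 and Dst gained calls as higher. Of 4 genes for proteins that organize keratin filaments, 3 were higher and 1 lower. Fam83h, which recruits casein kinase 1 to keratins, rose by 1.05, and Csnk1a1, encoding that kinase, fell by 0.76. Tchp, encoding trichoplein, and Dnajb6, a chaperone of keratins, rose by 0.58 and 0.34.

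Other intermediate filament genes moved in both directions, with 2 higher and 2 lower of 9 tested, or 5 higher and 2 lower with total counts alone, where Nes, Lmna and Lmnb2 were added. Vim, the mesenchymal vimentin, fell from 73.5, 88.0 and 91.5 CPM to 18.4, 17 and 17.8 CPM (log2 fold change -2.25, adjusted p = 1.59e-08, edgeR). The neurofilament genes Nefl and Nefh had log2 fold changes of -1.14 and 3.57, and the lamin gene Lmnb1 had 0.53.

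Squamous differentiation genes were split, with 9 higher and 5 lower of 17 tested (edgeR), against 40.3% and 38.8% of all genes tested. The cornified envelope genes Sprr2d, Cnfn and Sprr2e rose by 4.37, 2.14 and 2.00 on the log2 scale. Sprr2d had only 1, 3 and 2 counts in the controls and a mean of 1.82 CPM after Folfiri. Sprr2e had 3, 11 and 11 control counts, so the sizes of both rises are uncertain. Spink5, a protease inhibitor of the epidermis, went from 1 count to 68, a ratio of 52.4 with a counting interval from 9.09 to 2.1e+03. The cornified envelope genes Sprr2a3 and Sprr2b fell by 1.10 and 0.85, Sbsn by 0.93 and Sfn by 0.79. Sprr2a3, the most abundant of them, went from 1017 ± 201 CPM down to 476 ± 59.5 CPM with treatment (SD, n = 3 each), and Sprr2 genes are close copies whose counts may be split.

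Of the transcription factors that govern epithelial and squamous genes, 2 of 9 tested were higher and 5 lower (edgeR), against 40.3% and 38.8% of all genes tested. Grhl1 and Ovol2 rose by 1.80 and 1.54, whereas the intestinal factor Cdx2 fell by 1.53, Elf3 by 1.31, Grhl3 by 1.28 and Klf5 by 0.66. Trp63, the factor that defines stratified epithelium, had 0 counts in every control and 7, 3 and 6 counts after Folfiri, and was not tested. Genes of differentiated colonocytes were 2 higher (Aqp8 and Fabp2) and 2 lower (Cdhr2 and Cdhr5) of 5 tested. Aqp8 had at most 0.598 ± 0.131 CPM (the mean after Folfiri, SD, n = 3), and Cdhr5 and Cdhr2 lost their calls with total counts alone.

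The labelled colorectal origin was checked against marker lists. The 10 intestinal epithelium markers summed to between 3279 and 3759 CPM in the controls and between 2229 and 2351 CPM after Folfiri, with 1 higher and 5 lower of 9 tested, and Cdh1 was the highest of them after treatment, at 786 ± 45.7 CPM (SD, n = 3). Cdh1 was the gene called higher, and its adjusted p of 0.035 (edgeR) rose to as much as 0.15 without Folfiri replicate 2. The 10 stratified epithelium markers, which include Krt5, Krt14, Krt15, Krt1, Krt10 and Krt13, summed to between 16.3 and 18.3 CPM and then between 25.8 and 29.3 CPM, with 2 higher and 2 lower of 6 tested, or 4 and 2 with total counts alone. Their highest gene after treatment was Dsg3, at 11.4 ± 1.12 CPM (SD, n = 3). Their part in the rise of Krt4 was not tested. The 8 immune markers summed to between 21.4 and 26.2 CPM and then between 21.6 and 22.6 CPM, nearly all from Cd68, and Cd3e was at 0. Of 2 tested, 1 was higher, Ptprc (log2 fold change 1.39, adjusted p = 0.000479, edgeR), with 7 to 13 counts per control and 31 to 35 per treated culture. The 7 fibroblast markers summed to between 1.08 and 1.44 CPM in the controls and between 2.03 and 2.45 CPM after Folfiri. Col1a1 was the highest in the controls, at a mean of 0.842 CPM, and Pdgfra after Folfiri, at 1.14 CPM, with Lum at 0. Of 3 tested, Pdgfra (log2 fold change 1.54, adjusted p = 0.00046, edgeR) and Dcn were higher and Col1a1 was lower (-1.47, adjusted p = 0.00149). Counts of Dcn were 2, 0 and 0 in control cultures and 19, 26 and 20 in treated cultures. The part of these cell types in the keratin changes was not tested. The 4 endothelium markers, nearly all from Cdh5, summed to between 72.2 and 125 CPM in the controls and between 65.7 and 76.4 CPM after Folfiri, and Cdh5 missed the threshold (log2 fold change -0.35, adjusted p = 0.0967, edgeR). Its difference rested on Control replicate 1, at 124 CPM against 73.4 and 71.8 in the other controls, since without it the value was -0.04 (adjusted p = 0.628, edgeR), and it passed without Control replicate 2 (adjusted p = 0.0276) or 3 (adjusted p = 0.021). The 3 mesothelium markers summed to between 0.648 and 0.760 CPM and then between 0.0607 and 0.42 CPM, with Lrrn4, the highest, lower (adjusted p = 0.000251, edgeR).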

How the data were processed

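RNA was sequenced from poly(A) libraries of 3 Control and 3 Folfiri cultures, grouped by the labels. The authors aligned the reads to mm10 (GRCm38) with STAR 2.5.2 and counted them per gene with Rsubread, and the deposited values are raw counts without normalization. Treatment of reads with several positions, which affects genes with close copies, is not given in the sources used here. Of 24190 genes, 24168 matched GENCODE vM21, an earlier release than the authors' on the same build, and 0 columns were left aside.

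Starting there, edgeR 4.0.16 (R 4.3.3) gave TMM factors, its default expression filter, the quasi-likelihood test and Benjamini-Hochberg adjusted p values over 14692 genes. CPM are TMM-normalized, and between genes they are divided by the length of the transcript with the longest coding sequence. That length replaced the union of exons after the annotation had been seen. Ratios were tested by exact two-sided permutation. Promoter sequences are from RefSeq on GRCm38.p6. The labels do not say whether the replicate numbers pair the samples, and the main fit did not pair them. Fits were tested on simulated data.

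The members and gene lists were chosen with earlier results of these data known. All members and every other tested keratin are named, with up to 4 genes per direction of each wider list, those with the largest changes among called genes whose groups did not overlap, and of the marker lists the highest gene after treatment and any at 0. The other names (Dsp, Plec, Jup, Dsc2, Evpl, Ppl, Pkp3, Dst, Nes, Lmna, Lmnb2, Krt15, Trp63, Ptprc, Dcn, Col1a1) were added with their values in view. As alternatives, DESeq2 1.42.0, other scalings and filters, a replicate block, each culture left out and other lengths were tried.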

Additional observations from a re-analysis of the deposited data

How the results depend on the processing

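The rises of Krt4, Krt6a and Krt80 and the fall of Krt19 kept their direction and their side of the threshold under each of the other scalings, filters and tests and without any 1 culture. With total counts only, which raised the median of all genes from 0.02 to 0.30, the log2 fold changes of Krt8, Krt18, Krt20 and Krt23 turned to 0.00, 0.10, 0.14 and 0.04, none past the threshold, the number of members called lower was 1 in place of 4, and the medians were 0.00 for the simple keratins and 2.37 for Krt4 and Krt6a. The wider lists then had 45 genes called higher and 23 lower, in place of 34 and 27. Leaving out each culture in turn gave between 1 and 4 members called lower and 3 called higher each time. The log2 difference of the type II to type I ratio, 0.40, became 0.36 with raw counts, 0.35 with coding length, an alternative chosen after seeing the data, and 0.28 over all annotated keratins. The Krt4 share rose by 5.81 percentage points by transcript length, 6.55 by raw counts, 6.34 by all exons and 5.54 by coding length. Transcript length replaced all exons after the annotation had been seen, and coding length was chosen after seeing the data. The change of the Krt19 share was -7.95 percentage points, or -7.17 by raw counts.

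A replicate block changed no call among the members, with 3 higher and 4 lower and Krt8 at -0.27 (adjusted p = 0.0249, edgeR). Deviations of samples with the same number correlated at 0.027, -0.117 and 0.039. With 3 samples per group these values cannot decide whether the numbers pair them, and the labels do not say. With the block 11499 genes were called in place of 11623. Depth limits Krt17 and Krt20 and the hair keratins with few counts.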
